A study of Homo sapiens with 4 samples.

Results

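The enzymes of mucin-type O-glycan biosynthesis were followed after silencing of PRR11 in ACHN, an established cell line of human renal cell carcinoma. They are 33 genes of the 36359 in the count table, chosen by name and by role, namely 17 initiating enzymes of the GALNT family, 2 core 1 genes, 3 core 2 enzymes, 3 enzymes of core 3 and chain extension, and 8 sialyltransferases. RNA was sequenced after transfection of a control siRNA (siNC, 2 libraries) or of siRNA against PRR11 (siPRR11, 2 libraries), and the comparison asked what lies downstream of PRR11 in renal cell carcinoma. All libraries came from 1 cell line, with no other agent or genotype named, and the siPRR11 duplex used is not given in the sources used here.

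O-glycosylation of the mucin type starts in the Golgi, where a GALNT enzyme links N-acetylgalactosamine (GalNAc) to a serine or threonine of a protein. C1GALT1, with the help of its chaperone C1GALT1C1 (Cosmc), adds galactose to give core 1, and a GCNT enzyme adds a branch to give core 2. Sialyltransferases then cap these chains, and extending enzymes lengthen them. The many GALNT isoforms differ in the proteins and partly glycosylated peptides they prefer. In carcinomas, short O-glycans are a known feature of cell surface and secreted proteins.

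Counted reads lay between 59003839 and 92612749 per library. PRR11 itself was at 41.3 and 40.4 CPM (read counts scaled to library size, here with the TMM method of edgeR) in the siNC libraries and at 15.3 and 14.0 CPM in the siPRR11 libraries, so that 35.9% of the control level remained. Of the renal and epithelial markers, PAX8, KRT8 and KRT18 were well covered, with at least 12991 reads each in every library, while LRP2, AQP1 and CA9 were near 0 in all of them. Among these markers EPCAM (-0.65) fell and KRT18 (0.36) rose. PTPRC, CD3E, PECAM1, CDH5, DCN and LUM, which mark blood, endothelial and stromal cells, had at most 8 reads in any library. VWF, another endothelial marker, had 14 and 12 reads in siNC and 30 and 26 in siPRR11 (log2 fold change 0.73, adjusted p = 0.323 from edgeR). CD68 and COL1A1, from the same list, were expressed, and COL1A1 rose (log2 fold change 0.90, edgeR's quasi-likelihood test, adjusted p = 0.000329). Since RNA of whole cultures was measured, fewer cells with a transcript and less transcript per cell cannot be told apart. Nothing in the labels says that the libraries of a group came from separate cultures, and p-values then measure the spread between these libraries only.

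After silencing of PRR11, a set of GALNT genes, 1 core 2 enzyme and 1 sialyltransferase were lower, while neither core 1 gene passed the test. Of the 33 genes, 25 had enough reads to pass edgeR's filter and be tested, the lowest count among them being 12. Of these, 10 fell by an adjusted p under 0.05. None rose, by edgeR's quasi-likelihood test or by DESeq2, and none was higher at an unadjusted p under 0.05. Over all 21630 genes tested, 9.14% were called lower and 7.61% higher in siPRR11 cells. The median log2 fold change was -0.31 over the 25 enzymes and 0.00 over all genes tested, and 19 enzymes were on the lower side and 6 on the higher. These genes were listed with earlier results of the same libraries known, and 10 of them belong to the O-glycan genes that a ranking of these same libraries had picked out. Of those 10 genes 9 were called lower, which is no independent evidence of their direction. They are all 8 called GALNT genes and GCNT3, and the picked gene that was not called is GALNT3. Of the other 15 tested enzymes 1, ST6GALNAC3, was called lower (6.67%), which is no more than the share among all genes. The median log2 fold change of these 15 was -0.06, and no GALNT gene among them was called.

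**Figure D1:**
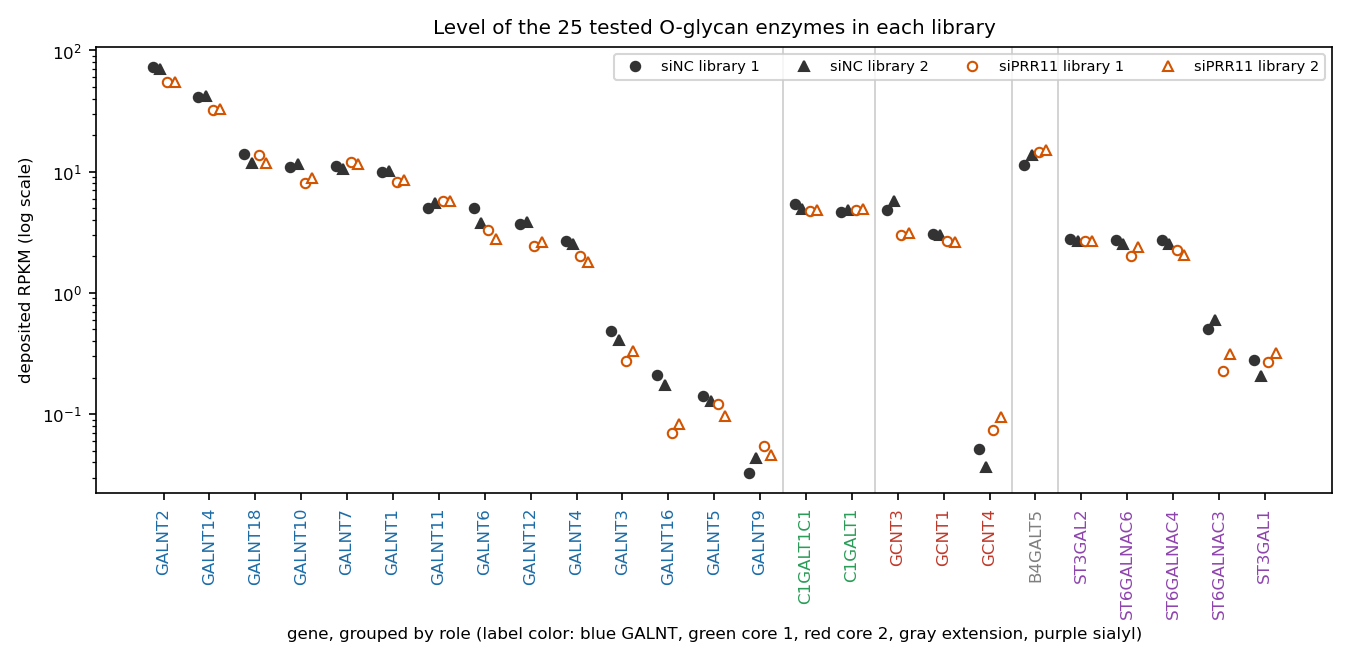
Deposited RPKM (reads scaled to exon length and library size, log axis) of the 25 tested O-glycan enzymes in each library, grouped by role and ordered by level. Filled symbols are the siNC libraries and open symbols the siPRR11 libraries. GALNT2 stood highest in all 4 libraries, between 55.0 and 72.7 RPKM.

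The initiating enzymes were dominated by a pair of related isoforms. To compare levels between genes, RPKM (reads scaled to exon length and library size) is used throughout, and fold changes are those of edgeR on the counts. GALNT2, a broadly expressed isoform, was at 72.7 and 70.4 RPKM in the siNC libraries and at 55.0 and 55.2 RPKM in the siPRR11 libraries. Both silenced libraries lay below both controls by more than the spread within a group, and GALNT2 fell by 0.42 on the log2 scale (± 0.0693 SE, with an adjusted p of 0.00173 in edgeR). In siNC cells it ranked 649 among the 21630 genes tested by RPKM. GALNT2 lies on chromosome 1 of GRCh38 from 230057990 to 230282124, and 13.3% of its exonic bases overlap RP5-956O18.3, a gene of the other strand. That gene fell as well (-0.33, adjusted p = 0.0386), but it held at most 2325 reads in any library, against at least 32166 for GALNT2.

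GALNT14, a close relative of GALNT2 on chromosome 2 from 30910467 to 31155202, was at 41.1 and 42.2 RPKM in siNC cells and at 32.3 and 32.7 RPKM in siPRR11 cells. Its log2 fold change of -0.41 (± 0.0706 SE, with an adjusted p of 0.00241 in edgeR) was close in size to that of GALNT2. GALNT16, the third member of this subgroup, had few reads, with 0.210 and 0.173 RPKM in siNC cells and 0.0700 and 0.0835 RPKM in siPRR11 cells. It had the largest fall of the 25 enzymes in the test on counts (-1.37 ± 0.229 SE, with an adjusted p of 0.00199 in edgeR), resting on 188 and 110 reads against 70 and 76. On the log2(RPKM + 1) scale, which shrinks changes of weakly expressed genes, its difference was -0.15 with an adjusted p of 0.0696 from limma. All 3 genes of this subgroup thus fell in the test on counts, although their levels differed widely. All 3 had also been picked out by the earlier ranking of these libraries, so their shared direction is no independent evidence.

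GALNT10 and GALNT7 form another related pair, known to act on peptides that already carry a GalNAc. GALNT10, on chromosome 5 from 154190730 to 154420984, was at 11.0 and 11.6 RPKM in siNC cells and at 8.14 and 8.88 RPKM in siPRR11 cells (log2 fold change -0.46 ± 0.0782 SE, with an adjusted p of 0.00217 in edgeR). GALNT7, at 11.1 and 10.6 against 11.9 and 11.6 RPKM, had a log2 fold change of 0.07 with a 95% interval from -0.10 to 0.23 (adjusted p = 0.608). The pair was thus at about the same level in control cells and at different levels after silencing. The ratio of GALNT10 to GALNT7 was 0.993 and 1.10 in the siNC libraries and 0.683 and 0.769 in the siPRR11 libraries. This ratio was formed after the values had been seen, and with 2 libraries against 2 an exact permutation test cannot go below p = 0.333.

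The DNA just before the annotated starts of 4 enzymes is shown side by side. These are GALNT2 and GALNT10, which fell, GALNT7, which was not called, and GCNT3, which fell most among the well-covered genes. The sequences lie within the 250 bases before a RefSeq start on GRCh38.p14, which need not be the outermost start of the gene, and are written 5′ to 3′ toward the gene, without bases that the deposited gene models count as exon. Capitals mark matches on either strand to the GC box GGGCGG or to CCAAT, and neither TATAAA nor CACGTG occurred in these runs.

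GALNT2 (chr1:230066988-230067208, plus strand): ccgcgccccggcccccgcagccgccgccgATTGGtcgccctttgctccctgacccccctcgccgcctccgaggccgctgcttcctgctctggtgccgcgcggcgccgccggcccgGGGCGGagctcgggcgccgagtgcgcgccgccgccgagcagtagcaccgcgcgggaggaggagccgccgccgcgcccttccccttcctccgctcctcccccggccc

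GALNT10 (chr5:154190483-154190729, plus strand): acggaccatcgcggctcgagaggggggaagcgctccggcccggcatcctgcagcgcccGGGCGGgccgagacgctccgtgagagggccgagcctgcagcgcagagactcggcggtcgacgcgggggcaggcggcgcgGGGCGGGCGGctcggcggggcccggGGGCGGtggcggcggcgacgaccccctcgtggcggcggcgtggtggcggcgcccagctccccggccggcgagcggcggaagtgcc

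GALNT7 (chr4:173168561-173168752, plus strand): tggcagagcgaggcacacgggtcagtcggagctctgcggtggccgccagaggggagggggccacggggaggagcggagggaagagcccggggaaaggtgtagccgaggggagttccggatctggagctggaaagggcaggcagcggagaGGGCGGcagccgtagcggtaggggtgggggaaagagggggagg

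GCNT3 (chr15:59611677-59611782, plus strand): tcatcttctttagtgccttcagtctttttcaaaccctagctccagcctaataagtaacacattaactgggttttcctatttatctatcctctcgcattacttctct

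The runs of the GALNT genes are rich in G and C, and that of GCNT3 is not. RefSeq promoters were found for 23 of the 33 enzymes, with 33 starts in all. In the 250 bases before the start, GGGCGG occurred in 8 of the 11 starts of the enzymes that fell and in 12 of the 17 starts of tested enzymes that were not called, against 42.6% of all 35116 promoters. CCAAT occurred in 3 of 11 and 4 of 17 (32.0% of all promoters), CACGTG in 1 of 11 and 1 of 17 (6.34%), and TATAAA in none of either (10.7%). A match is a description of the letters, and starts of the same gene are not independent. Which of these starts ACHN cells use was not tested.

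GALNT1, on chromosome 18 from 35581117 to 35711834, is broadly expressed like GALNT2. It was at 9.97 and 10.1 RPKM in siNC cells and at 8.15 and 8.60 RPKM in siPRR11 cells, the smallest fall that passed the test among the enzymes (-0.31 ± 0.0793 SE, with an adjusted p of 0.0208 in edgeR). The call was lost without siPRR11 library 1 (adjusted p = 0.243 from edgeR) and without siPRR11 library 2 (adjusted p = 0.0852). GALNT6, on chromosome 12 from 51351247 to 51392867, was at 5.05 and 3.77 RPKM in siNC cells and at 3.31 and 2.80 RPKM in siPRR11 cells (log2 fold change -0.58 ± 0.131 SE, with an adjusted p of 0.0104 in edgeR). The control libraries of GALNT6 differed from each other by nearly as much as the groups did, and without siNC library 1 its log2 fold change was -0.36, still past the threshold. GALNT3, its closest relative, which glycosylates the hormone FGF23, lay lower, at 0.488 and 0.412 against 0.272 and 0.329 RPKM. Its difference of -0.64 did not pass (adjusted p = 0.0577), but did so in 4 of 13 alternatives, namely edgeR's exact test (adjusted p = 0.0300), no filter (0.0188), the replicate number as a term (0.00487) and without siNC library 2 (0.0254).

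GALNT12 and GALNT4, another related pair, both fell, and both had been picked out by the earlier ranking of these libraries. GALNT12, on chromosome 9 from 98807699 to 98850081, was at 3.68 and 3.87 RPKM in siNC cells and at 2.42 and 2.64 RPKM in siPRR11 cells (log2 fold change -0.63 ± 0.111 SE, with an adjusted p of 0.00278 in edgeR). GALNT4, on chromosome 12 from 89519408 to 89524806, was at 2.67 and 2.53 RPKM and then at 2.00 and 1.80 RPKM (log2 fold change -0.50 ± 0.106 SE, with an adjusted p of 0.00772 in edgeR), and its call was lost without siPRR11 library 2 (adjusted p = 0.0794). POC1B-GALNT4, a read-through gene annotated on the same strand, shares 93.2% of the exonic bases of GALNT4. The row of GALNT4 held 1197, 805, 1000 and 818 reads in the order siNC 1, siNC 2, siPRR11 1 and siPRR11 2, and the row of POC1B-GALNT4 held 1096, 743, 919 and 779, so that these rows cannot be told apart. For GALNT12 21.1% of the exonic bases overlap an antisense gene, RP11-92C4.3, whose log2 fold change was -0.59 (adjusted p = 0.0536 from edgeR). That gene held 224, 155, 148 and 173 reads in the same order, against 958, 716, 702 and 697 for GALNT12. How many reads the rows of these genes share was not tested. Smaller overlaps included those of GALNT6 with the antisense gene SLC4A8 (5.34%), which rose by 0.77, and of GALNT10 with MFAP3 (1.15%), which rose by 0.41. GALNT16 overlaps the antisense gene RP11-363J20.2 (1.65%), which held 34, 22, 18 and 18 reads in the same order. The log2 fold change of that gene was -0.99 (adjusted p = 0.146 from edgeR). ST6GALNAC6, a sialyltransferase, shares 4.97% with RP11-203J24.9 on the same strand, which held at least 2576 reads in every library.

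The other GALNT genes did not pass the test. GALNT18, the third most abundant isoform in siNC cells, was at 13.9 and 11.7 RPKM in siNC cells and at 13.8 and 11.7 RPKM in siPRR11 cells, so its libraries overlapped fully (log2 fold change -0.06, 95% interval -0.29 to 0.17). GALNT11, which is known to act on receptors of the LDL receptor family, was at 4.97 and 5.56 against 5.70 and 5.78 RPKM (log2 fold change 0.08, interval -0.11 to 0.26). For GALNT7, GALNT11 and GALNT18 these intervals leave out a fall as large as that of GALNT2. GALNT5 (80, 52, 76 and 56 reads) and GALNT9 (19, 18, 35 and 27 reads) had wide intervals, from -0.96 to 0.24 and from -0.58 to 1.30, and smaller changes than these could not be told from 0 at this depth. GALNT8 had between 4 and 14 reads per library and GALNT13 at most 6, and 46.0% of the exonic bases of GALNT8 are shared with KCNA6. GALNT15 had no read in any library, which allows at most 0.0318 to 0.0517 CPM per library for counting error.

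**Figure D2:**
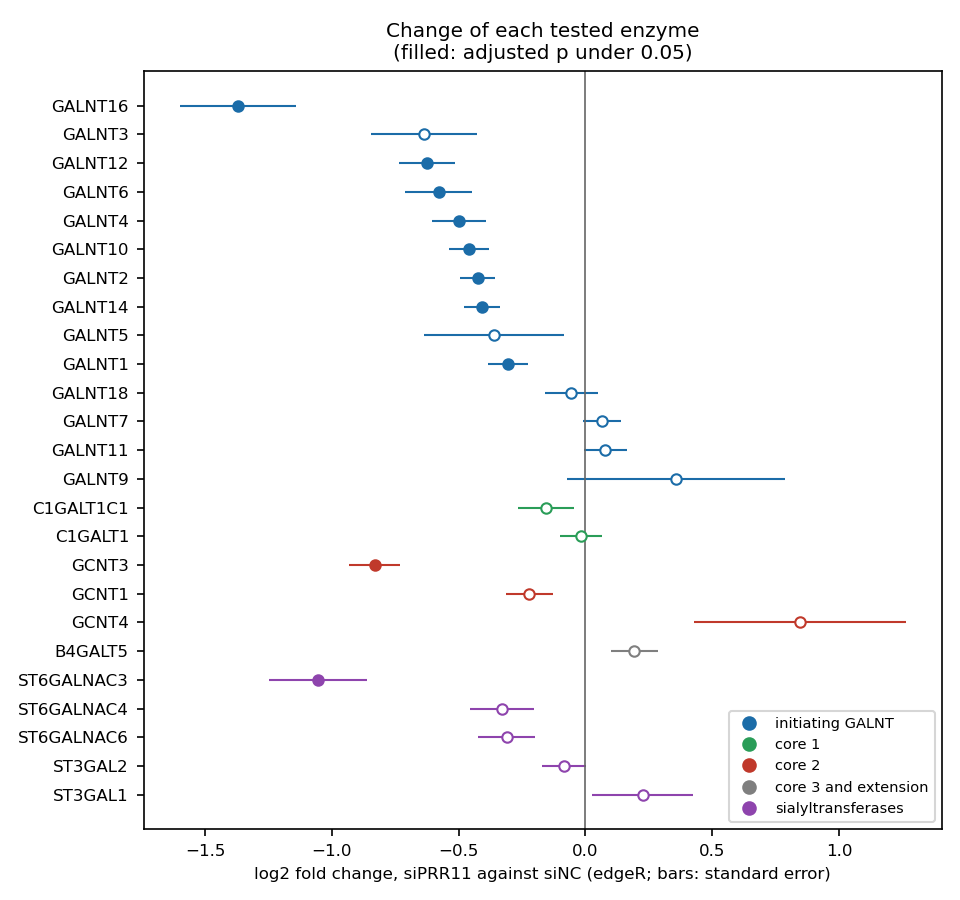
Log2 fold change of each tested enzyme, siPRR11 against siNC, from edgeR's quasi-likelihood test, with its standard error as a bar. Filled points have an adjusted p under 0.05 over all 21630 genes tested. The 10 filled points all lie below 0, from -1.37 for GALNT16 to -0.31 for GALNT1. All of them except ST6GALNAC3 had been picked out by a ranking of these same libraries.

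As a pool, the 17 initiating genes were lower in siPRR11 cells. Their summed RPKM was 177.1 and 173.2 in the siNC libraries and 143.2 and 142.3 in the siPRR11 libraries, so that 81.5% of the control sum was left. These sums are not TMM-scaled, and TMM factors of 0.983 and 0.984 in siNC and of 1.015 and 1.018 in siPRR11 would place the silenced libraries slightly lower. GALNT2 held 40.9% and GALNT14 23.8% of the pool in siNC cells on average, and in siPRR11 cells they held 38.6% and 22.8%. These isoforms together accounted for 79.2% of the difference in the pool. All 8 called genes of the pool, GALNT2 and GALNT14 among them, had been picked out by the ranking of these same libraries. The lower sum is thus no independent evidence of a fall of the initiating genes. Of the most abundant genes not picked, GALNT7 differed by 0.887, GALNT11 by 0.476 and GALNT18 by -0.0655 RPKM. The mean share grew from 6.19% to 8.22% for GALNT7, from 7.32% to 8.94% for GALNT18 and from 3.01% to 4.02% for GALNT11, none of which was called. GALNT1, which was called, also took a slightly larger share (5.72% and 5.87%), and that of GALNT3, which was not called, was smaller (0.257% and 0.211%).

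**Figure D3:**
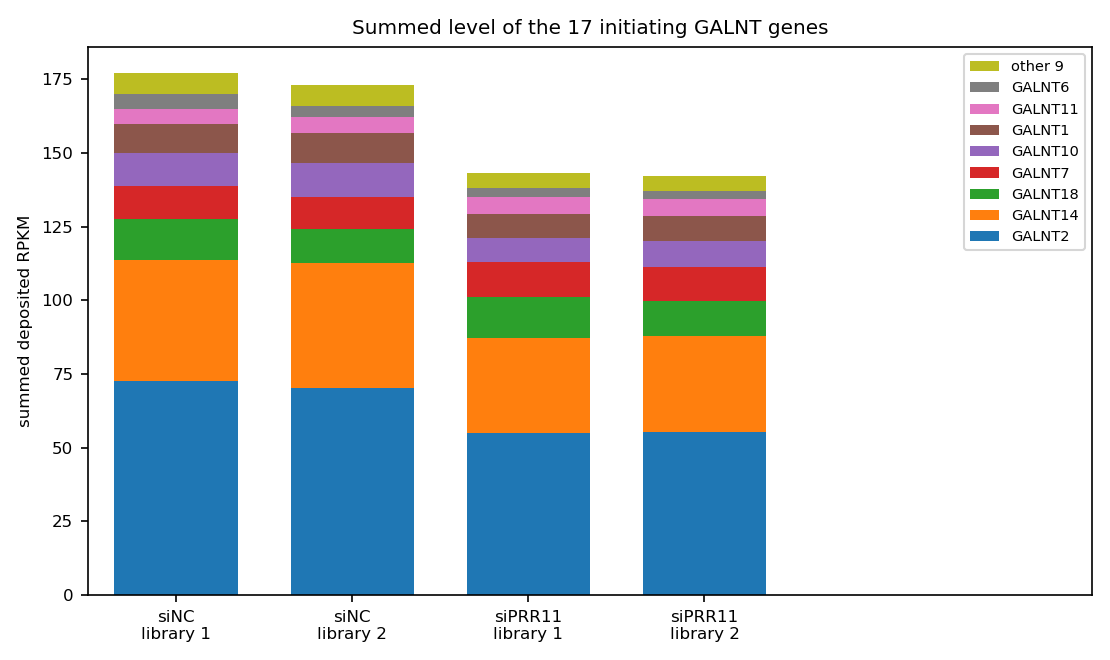
Summed deposited RPKM of the 17 initiating GALNT genes in each library, stacked by gene, with the 8 most abundant genes shown apart. The siNC bars reach 177.1 and 173.2 RPKM and the siPRR11 bars 143.2 and 142.3 RPKM, with GALNT2 and GALNT14 as the largest parts of each bar. Both genes had been picked out by a ranking of these same libraries.

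At the next step of the pathway neither gene passed the test. C1GALT1, the core 1 galactosyltransferase, lies on chromosome 7 from 7156934 to 7248651. It was at 4.68 and 4.86 RPKM in siNC cells and at 4.85 and 4.89 RPKM in siPRR11 cells, and its groups overlapped on the TMM-scaled level (log2 fold change -0.02, 95% interval -0.20 to 0.16, adjusted p = 0.917 from edgeR). The sign of this value changed with the scaling, and it was 0.02 on the log2(RPKM + 1) scale. Its chaperone C1GALT1C1, on the X chromosome, was at 5.38 and 4.95 against 4.78 and 4.81 RPKM (log2 fold change -0.16, interval -0.40 to 0.09). Against C1GALT1 in the same library, GALNT2 was 15.5 and 14.5 times as abundant by RPKM in the siNC libraries and 11.3 times in each siPRR11 library.

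Among the core 2 enzymes, GCNT3, which can form core 2 and core 4 branches on mucins, fell most clearly. It lies on chromosome 15 from 59594875 to 59640239, no exon of another gene overlaps it, and it was at 4.83 and 5.75 RPKM in siNC cells and at 2.997 and 3.14 RPKM in siPRR11 cells. GCNT3 thus fell by 0.83 on the log2 scale (± 0.102 SE, with an adjusted p of 0.000303 in edgeR), so that 56.2% of the control level was left, and with any single library removed it ranged from -0.96 to -0.71. GCNT1, the more widely expressed core 2 enzyme, was at 3.05 and 2.99 against 2.70 and 2.65 RPKM. Its difference of -0.22 (interval -0.42 to -0.02) did not pass over all genes (adjusted p = 0.126 from edgeR). GCNT4 had 24 and 12 reads in siNC and 38 and 44 in siPRR11 (log2 fold change 0.85 ± 0.418 SE, adjusted p = 0.199). The RPKM ratio of GCNT3 to GCNT1 was 1.59 and 1.92 in the siNC libraries and 1.11 and 1.19 in the siPRR11 libraries, and that of GCNT3 to C1GALT1 went from 1.03 and 1.18 to 0.617 and 0.642. These ratios too were formed after the values had been seen and have no test.

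Chain extension was represented by a single tested gene. B4GALT5, a galactosyltransferase that also makes lactosylceramide, was at 11.4 and 13.6 RPKM in siNC cells and at 14.5 and 15.0 RPKM in siPRR11 cells. Its log2 fold change of 0.19 (interval -0.01 to 0.39, adjusted p = 0.182 from edgeR) did not pass, but was 0.32 without siNC library 2 and then passed (adjusted p = 0.00915). B3GNT6, the core 3 synthase, had 1 read in all 4 libraries, and B3GNT3, which extends core 1, had 4 reads in all. Transcripts of these enzymes were thus at or near the limit of detection at this depth.

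Of the sialyltransferases, ST6GALNAC3, which adds sialic acid to the GalNAc of sialylated core 1, was the one called lower among the 5 tested. It was at 0.501 and 0.592 RPKM in siNC cells and at 0.228 and 0.315 RPKM in siPRR11 cells, with a log2 fold change of -1.06 (± 0.193 SE, with an adjusted p of 0.00333 in edgeR). It lies on chromosome 1 from 76074719 to 76634601, and on the log2(RPKM + 1) scale its difference was -0.28 with an adjusted p of 0.0517 from limma. ST6GALNAC4, which carries out the same reaction and was more abundant, was at 2.73 and 2.51 against 2.26 and 2.07 RPKM (log2 fold change -0.33, interval -0.60 to -0.05, adjusted p = 0.101). ST6GALNAC6, known mainly for glycolipids, was at 2.72 and 2.55 against 2.01 and 2.39 RPKM (log2 fold change -0.31, interval -0.56 to -0.06, adjusted p = 0.0849 from edgeR), and passed without siNC library 2 (adjusted p = 0.0428). Both intervals lay under 0, and both genes passed when the replicate number was a term (adjusted p = 0.0131 and 0.00208 from edgeR). The calls alone thus show no difference between them and ST6GALNAC3. The interval of ST6GALNAC3, from -1.48 to -0.63, lay below both of theirs. The RPKM ratio of ST6GALNAC3 to ST6GALNAC4 was 0.183 and 0.236 in the siNC libraries and 0.101 and 0.152 in the siPRR11 libraries. This ratio too was formed after the values had been seen, and the genes were not tested against each other.

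ST3GAL2 and ST3GAL1, which sialylate the galactose of core 1, did not pass either. ST3GAL2 was at 2.79 and 2.69 against 2.66 and 2.68 RPKM (log2 fold change -0.08, interval -0.27 to 0.10). ST3GAL1 was lower, at 0.279 and 0.206 against 0.270 and 0.321 RPKM, and its groups overlapped (log2 fold change 0.23, interval -0.21 to 0.66). ST6GALNAC1, the enzyme that makes the sialyl-Tn antigen, had 2, 2, 8 and 4 reads, ST6GALNAC2 had 8, 2, 9 and 20, and ST6GALNAC5 had 2 reads in all, so none of these could be tested. Most of the sialyltransferase level came from ST3GAL2, ST6GALNAC4 and ST6GALNAC6, with a summed RPKM over all 8 genes of 9.07 and 8.57 in siNC and 7.49 and 7.86 in siPRR11.

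Lists of genes around the pathway are given by their counts, to be read against the same 9.14% and 7.61% of all genes. Among 18 genes that supply sugar nucleotides, 2 fell and 1 rose. GALK2, a GalNAc kinase of the salvage route, fell by 0.40, and GALT, of galactose metabolism, rose by 0.44. Of 28 further extending and capping enzymes tested, 4 fell and 3 rose. B4GALT6 (-0.85), the paralog of B4GALT5, and B3GNT7 (-0.77) fell, and ST3GAL4, an α2,3-sialyltransferase, rose by 0.64.

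Of 14 tested mucins and mucin-like proteins, the acceptors of these glycans, 4 fell and 3 rose. MUC1, a membrane mucin of epithelia, rose by 0.72 (adjusted p = 0.00117 from edgeR), from 1.75 and 1.599 to 2.92 and 2.76 RPKM. MUC3A and MUC12 fell by 0.66 and 0.65. These are neighbouring, repetitive mucin genes, so reads may have been shared between them. Of 15 tested N-glycan branching and capping enzymes 3 fell and none rose (none at an unadjusted p under 0.05), among them MGAT4B (-0.49), MAN1A1 (-0.59) and ST6GAL1 (-0.71).

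The remaining lists moved little as groups. Of 25 genes of the oligosaccharyltransferase and its lipid-linked donor, 2 fell and 1 rose (STT3A -0.31, RPN1 -0.30, RPN2 0.26), with a median log2 fold change of 0.00. Of 21 tested genes for other O-linked sugars, 2 fell and 2 rose, with TMTC4 at -0.57, POFUT1 at -0.28 and POGLUT2 (named KDELC1 in the table) at 0.49. Of 33 Golgi tethers and coat proteins none fell (2 at an unadjusted p under 0.05, edgeR) and 2 rose, COPZ2 by 1.001 and COG4 by 0.42. The median log2 fold change was -0.11 for extension and capping, 0.05 for sugar nucleotides, 0.14 for mucins, -0.15 for N-glycan branching, 0.05 for other O-linked sugars and 0.03 for the Golgi list. GALNTL5 and GALNTL6, relatives of the GALNT family, gave 1 tested gene, which was not called.

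**Figure D4:**
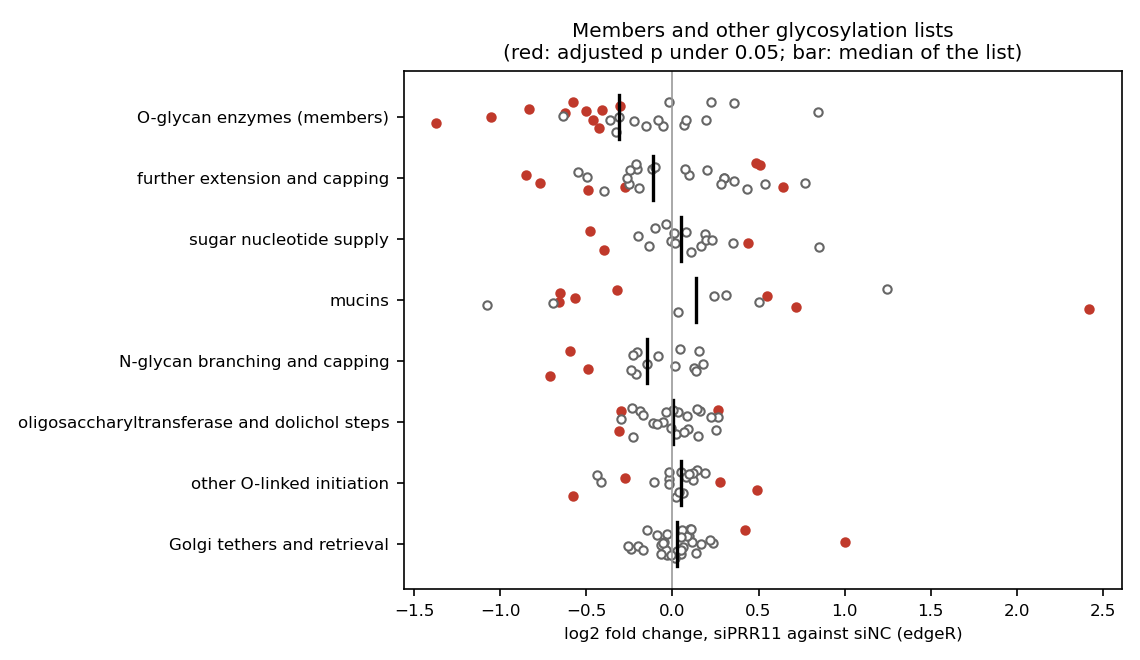
Log2 fold change, siPRR11 against siNC, of the tested genes of 8 lists, with 1 point per gene, red points at an adjusted p under 0.05 in edgeR's quasi-likelihood test and a bar at the median of each list. The median of the O-glycan enzymes was -0.31, and those of the other lists lay between -0.15 and 0.14. However, 10 of the enzymes had been picked out by a ranking of these same libraries. Without them the median of the other 15 tested enzymes was -0.06, within the range of the other lists.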

How the data were processed

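RNA of ACHN cells transfected with siNC or siPRR11 (2 libraries each) was measured by stranded RNA sequencing. The labels gave each group and replicate number. Reads were trimmed (Trimmomatic 0.36 in the submitters' notes), aligned to GRCh38 with STAR and counted with featureCounts of Subread 1.5.1. The authors deposited raw read counts per gene and RPKM values of the same genes. The annotation release and whether counting used strand are not given in the sources used here, so overlapping genes are uncertain.

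Counts were tested with edgeR 4.0.16 (R 4.3.3) by its quasi-likelihood test with TMM scaling, filterByExpr and condition as the only term. Of 36359 genes 21630 were tested, and p-values were adjusted over them by the Benjamini-Hochberg method with 0.05 as threshold. Intervals are at 95% from the test's degrees of freedom. Alternatives were RLE scaling, DESeq2 1.42.0, edgeR's exact test, other filters, a replicate term, limma 3.58.1 on log2(RPKM + pseudocount) with 1 or 0.1, and leaving out single libraries. On simulated counts of 21246 genes tested for this comparison, the main test recovered 103 of 103 genes with a log2 change of 1. It recovered 70 of 97 with one of 0.5 and made 31 false calls, a larger share of its calls than the threshold of 0.05. The simulation had no correlation between same-numbered libraries, unlike the data. The members and all lists were chosen with earlier results of these data known. Named genes are all members, PRR11, genes overlapping members, the markers, and up to 3 called genes of each other list with the largest change and an average log2 CPM of at least 1. Of the lists, GALNT17 and some mucins were not found by name and are not analysed here. Some genes of the other lists and markers enter the counts but are not reported here by name.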

Additional observations from a re-analysis of the deposited data

How the results depend on the processing

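The 10 falls kept their direction in every alternative run. Counts of members called lower were 10 with RLE scaling, with DESeq2 and with at least 10 counts in every library, and 11 with the exact test and with no filter. They were 5 with limma on log2(RPKM + 1) and on log2(RPKM + 0.1), and 0 with limma on log2(RPKM + 1) and no filter, a fit that called 0 genes of the whole table in either direction and moved PRR11 to -1.22 with an adjusted p of 0.0591. With the genes picked by the earlier ranking left out, an alternative added after the data were seen, 1 member was lower. When each library was left out (the remaining library of that group being assumed to vary like the others), between 8 and 12 members were lower and between 0 and 1 higher. Genes of the whole table called lower were then between 1227 and 2417, and those called higher between 945 and 2173. The cause of these shifts was not tested.

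Limma called 684 genes lower and 1091 higher with a pseudocount of 1, and 726 lower with 0.1. The replicate block, with the replicate number as a term, gave 3650 genes lower and 3338 higher, and among the members 14 lower (further GALNT3, GCNT1, ST6GALNAC4 and ST6GALNAC6) and 1 higher (B4GALT5). Deviations of same-numbered libraries correlated at 0.479 over genes, but with 2 pairs and no label on what the number marks this is a hint from the data only. Values near 0 changed sign when single libraries were left out, ranging from -0.00406 to 0.156 for GALNT11, from -0.178 to 0.0721 for GALNT18 and from -0.0484 to 0.00647 for C1GALT1. Under limma C1GALT1 was at 0.0249 with a pseudocount of 1, with and without the filter, and at 0.0295 with 0.1. Differences of summed RPKM became -15.9 for the initiating genes without GALNT2, -0.302 for core 2 without GCNT3, 0.0999 for core 1 without C1GALT1C1 and -0.0033 for core 3 and extension without B4GALT5. Over all pairs of a tested member and an alternative, 283 values kept direction and side of the threshold, 23 lost the call, 10 gained one and 7 changed sign. Depth limits the 8 members not tested, which had at most 20 reads in any library.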
